A study of Mus musculus with 2 samples.

Results

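The transcripts of Ptprc (CD45), Cd44 (CD44) and Hnrnpll (hnRNP LL) were described in inflammation-experienced regulatory T cells of the mouse. All transcripts listed under these 3 gene symbols in the deposited transcript tables were taken, which gave 29 transcripts of 141862 GENCODE transcripts and 3 genes of 55536. Ptprc had 13 of them, Cd44 9 and Hnrnpll 7. Per the labels, the mice were male and 7 weeks old, the primary cells derived from activated regulatory T cells, and polyadenylated RNA was sheared and sequenced. There was 1 group, with 1 biological replicate sequenced as 2 technical libraries (library 1 and library 2), so no treatment or control was compared, and the SDs (n = 2) and tests below set 1 library against the other, not animals or conditions. The labels do not say how the cells were sorted, how inflammation was induced or whether animals were pooled.

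CD45 is a transmembrane phosphatase of blood cells that acts on Src family kinases such as Lck. Its exons 4, 5 and 6, called A, B and C, code for heavily O-glycosylated stretches near the outer end of the protein and can each be skipped. The form with all of them (RABC, also called B220) is typical of B cells, the form with none is RO, and in mouse CD4 T cells the epitope of exon B (CD45RB) is high on naive cells and low on effector and memory cells. hnRNP LL is an RNA-binding protein that is induced when T cells are activated and that makes the spliceosome skip these exons; its relative hnRNP L binds CA-rich RNA and acts on the same exons. CD44 is a receptor for hyaluronan that serves as a marker of activated T cells. Its standard form (CD44s) lacks the variable exons v1 to v10, and variant forms (CD44v), best known from epithelial cells, carry some of them in the part of the protein next to the membrane.

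The labelled cell type was checked against its markers. All 6 T cell markers were detected, with a summed level of 7373 TPM in library 1 and 7296 in library 2, as were all 6 regulatory T cell markers, at 1265 and 1101. The libraries stood furthest apart in the 4 erythroid markers, at 4824 and 56.6, and less so in NK cell markers (192 and 313). Macrophage markers summed to 32.9 and 71.0. Among them C1qc was at 0 counts in library 1, whereas Lyz2 was higher in library 1, at 23.78 TPM against 3.72. Values are therefore given for each library.

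The 4 variable exons of Ptprc are shown because the forms of CD45 differ by them. They are written 5′ to 3′ in the sense of the gene, from GENCODE M21 on mm10, with every CACA in capitals; CACA was searched on the sense strand only, and overlapping matches were counted.
Ptprc exon 4 (A): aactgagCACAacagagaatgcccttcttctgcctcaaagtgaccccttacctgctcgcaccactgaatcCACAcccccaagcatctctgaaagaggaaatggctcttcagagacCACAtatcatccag
Ptprc exon 5 (B): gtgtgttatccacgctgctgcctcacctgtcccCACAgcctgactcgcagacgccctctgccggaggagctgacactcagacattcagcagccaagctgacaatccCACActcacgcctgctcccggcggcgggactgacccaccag
Ptprc exon 6 (C): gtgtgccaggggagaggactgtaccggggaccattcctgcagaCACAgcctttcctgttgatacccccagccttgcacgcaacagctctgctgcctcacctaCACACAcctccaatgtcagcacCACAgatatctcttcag
Ptprc exon 7: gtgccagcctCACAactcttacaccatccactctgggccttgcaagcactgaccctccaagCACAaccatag
Exon 4 is chr1:138122456-138122584, exon 5 is chr1:138120020-138120166, exon 6 is chr1:138117754-138117894 and exon 7 is chr1:138116954-138117025, all on the minus strand and all coding. CACA occurred 3 times in exon 4, 2 times in exon 5, 4 times in exon 6 and 2 times in exon 7. Among internal coding exons within 5 bases of the same length, 3.45% held as many as exon 4, 18.3% as many as exon 5, 1.13% as many as exon 6 and 5.28% as many as exon 7. At least 1 CACA was present in 45.0% of the exons matched to exon 4, 51.2% for exon 5, 49.7% for exon 6 and 28.2% for exon 7. A match is a string of letters, not a measured binding site. Serine or threonine codons, the residues that carry O-linked sugars, made up 14 of 42 whole codons in exon 4, 13 of 48 in exon 5, 16 of 46 in exon 6 and 11 of 23 in exon 7. In the whole coding sequence of Ptprc-203, which lacks exons 4 to 6, they were 156 of 1154 codons (13.5%).

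Ptprc was among the most abundant transcripts of these cells, with Cd44 and Hnrnpll far lower per length and close to each other. Ptprc (ENSMUSG00000026395.16, chr1:138062861-138175708, minus strand) had 61011 expected counts and a TPM of 974.7 in library 1, and 50499 expected counts and a TPM of 972.0 in library 2. Its mean TPM of 973 ± 1.91 (SD, n = 2) ranked 116th of 13718 detected genes, which are those that reach a TPM of 1 in each library. Cd44 (ENSMUSG00000005087.17, chr2:102811141-102901665, minus strand) had 4289 expected counts and a TPM of 68.03 in library 1, and 3929 expected counts and a TPM of 76.5 in library 2. Hnrnpll (ENSMUSG00000024095.15, chr17:80029487-80062334, minus strand) had 3187 expected counts and a TPM of 65.92 in library 1, and 3023 expected counts and a TPM of 78.47 in library 2. The mean TPM of 72.3 ± 5.99 for Cd44 and of 72.2 ± 8.87 for Hnrnpll (SD, n = 2 each) placed them 2797th and 2802nd, and this difference is smaller than either spread.

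Between the libraries, the count of Ptprc relative to the library total did not pass the exact binomial test, with a log2 ratio of library 1 over library 2 of 0.0016 (adjusted p = 0.891, Benjamini-Hochberg over 24253 genes). Cd44 had a log2 ratio of -0.14 (adjusted p = 1.58e-05) and Hnrnpll one of -0.19 (adjusted p = 3.77e-07, same exact binomial test). At this depth 69.6% of all genes tested passed, so 2 of 3 members is close to the background. The median absolute log2 ratio of detected genes was 0.29, larger than the size of all 3. With DESeq2 size factors, which add 0.14 to every log2 ratio, the ratio of Cd44 stood at 0.00020. Ptprc stayed above 0 with edgeR's TMM factors, which add 0.11, and with DESeq2 size factors, and passed the test at 0.11 with TMM factors. Hnrnpll stayed below 0, at -0.086 with TMM factors and -0.050 with DESeq2 size factors. In the small gene table Ptprc had 7381 counts in library 1 and 7128 in library 2, a log2 ratio of -0.13. There it passed in the other direction (adjusted p = 2.50e-07, exact binomial test).

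The large table credited far more reads to Ptprc than the small table, which was made with an older annotation. Its count was 8.27 times the small-table count in library 1 and 7.08 times in library 2, beside medians of 2.11 and 2.03 over 8285 genes with at least 100 small-table counts in each library. Cd44 had 4.46 and 4.39 times as many, and Hnrnpll 1.96 and 1.90 times. Ptprc thus stood above 95.3% of these genes in library 1 and 94.7% in library 2, while Hnrnpll stood near the middle, above 44.2% and 44.4%. Other genes with many counts had larger or smaller gaps, so a wide gap was not particular to Ptprc. In library 1, Trac had 36905 expected counts against 1288 in the small table, and Msn had 53706.5 against 3521. These gaps were larger than that of Ptprc, while Jak1, with 36282 against 6793, had a smaller one. The reads that the tables treat differently cannot be traced from the deposited values. A130071D04Rik, a gene of unproven status inside an intron of Ptprc on the same strand (chr1:138161820-138167683), had 20.08 TPM in library 1 and 17.53 TPM in library 2.

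Most of the TPM of CD45 transcripts that span the variable exons was in forms without exons A, B and C. The form with all of them was a small share. Of the 13 Ptprc transcripts, 4 run from exon 3 to exon 8 and so report on the variable exons. Ptprc-203, the RO form with exon 7, had 320.12 TPM in library 1 and 341.17 TPM in library 2. Ptprc-204, the RO form without exon 7, had 191.03 and 215.98. These RO transcripts together held 79.2% of the TPM of the 4 transcripts in library 1 and 80.9% in library 2, with a mean of 80.1% ± 1.23 (SD, n = 2). They were the most abundant forms in each library.

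Ptprc-207, the RABC form with 33 exons, had 22.77 TPM in library 1 and 18.92 TPM in library 2, which was 3.53% and 2.75% of the 4 transcripts. Ptprc-213 carries exon B without A and C, followed by exon 7, and had 111.52 TPM in library 1 and 112.35 TPM in library 2. It was 17.3% of the 4 transcripts in library 1 and 16.3% in library 2, with a mean of 16.8% ± 0.678 (SD, n = 2). Ptprc-213 is annotated as incomplete at its 3′ end and is 702 bases long, against 4702 bases for Ptprc-203, so its 1208 expected counts in library 1 and 995.26 in library 2 weigh more per length. Of the 8 possible combinations of exons A, B and C, 3 are annotated in transcripts that span the region. Forms such as RAB or RBC have no spanning transcript to which reads could be credited. Exon B without A and C is annotated in the incomplete Ptprc-213 only. Reads of a longer form of this kind, past the end of Ptprc-213, could be credited to other transcripts only.

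**Figure D1:**
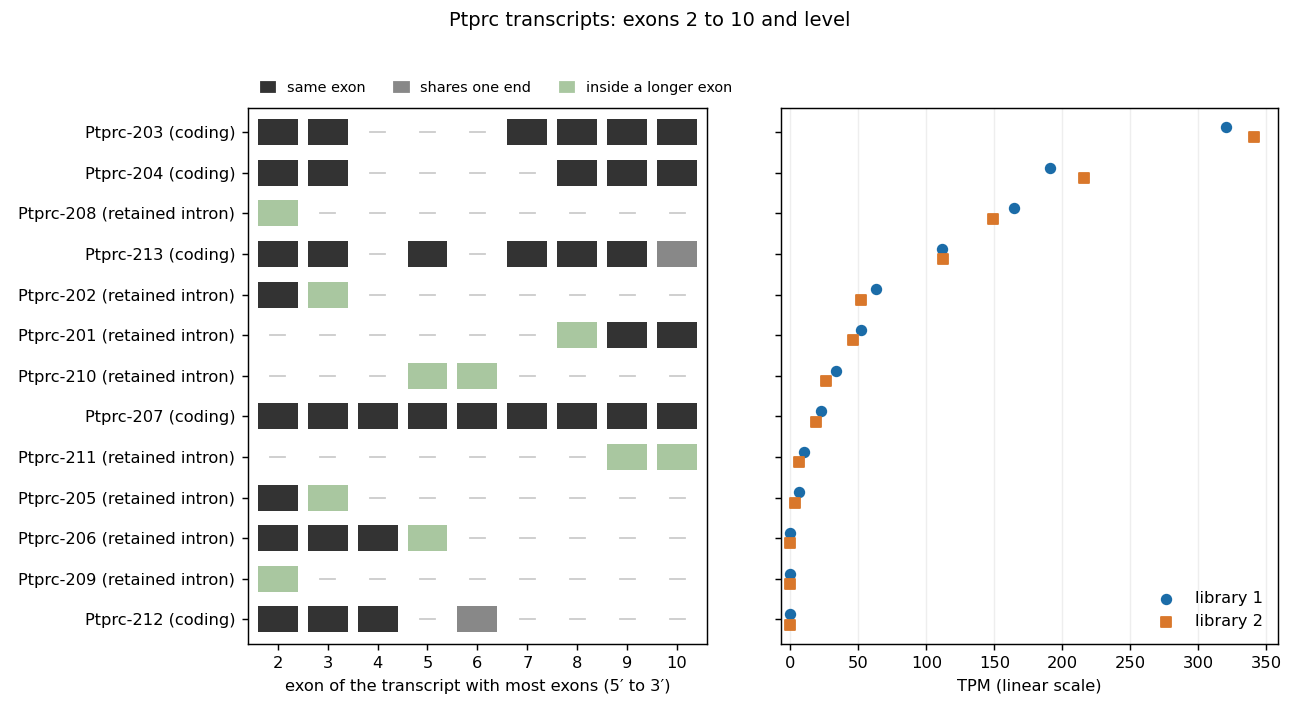
Ptprc transcripts by mean TPM, highest first. On the left, each column is an exon of Ptprc-207 (exons 2 to 10) and a block marks that the transcript holds it, shares one end of it or covers it within a longer exon; on the right, points give the TPM of library 1 (circles) and library 2 (squares) on a linear axis. The RO transcripts 203 and 204 lead, at 320.12 and 191.03 in library 1 and at 341.17 and 215.98 in library 2, while the RABC transcript 207 lies at 22.77 and 18.92.

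By exon, inclusion was lowest for A and C and highest for exon 7. Exon A was in 3.53% of the spanning TPM in library 1 and 2.75% in library 2, with a mean of 3.14% ± 0.551 (SD, n = 2), and exon C had the same values because Ptprc-207 is the one spanning transcript that holds either. Exon C had a mean of 7.34% when every transcript that covers its position was counted, which adds Ptprc-210. Exon B was in 20.8% in library 1 and 19.1% in library 2, a mean of 19.9% ± 1.23. Exon 7 was in 70.4% in library 1 and 68.6% in library 2, a mean of 69.5% ± 1.26. The order of the exons was the same in each library.

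The value for exon B rests on Ptprc-213. By expected counts, which do not divide by length, exon B was in 7.35% in library 1 (95% Wilson interval 7.10 to 7.60) and 6.14% in library 2 (5.90 to 6.39), and exon A in 4.49% (4.30 to 4.69) and 3.47% (3.29 to 3.66). These intervals cover counting error only. With Ptprc-213 left out, exons A, B and C all stood at a mean of 3.77% of spanning TPM and exon 7 at 63.4%. The values of A, B and C are then equal by construction, because Ptprc-207 is the one spanning transcript left that holds them. Exon B thus ranged between 3.77% and 19.9% with the treatment of 1 incomplete transcript. RO was the main form by TPM, and by expected counts it was at 92.7% in library 1 and 93.9% in library 2. Counts do not divide by length and so give the short Ptprc-213 less weight, which raises the RO share. Leaving out Ptprc-213 can only raise the RO share too, so neither setting is a test of it.

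B cell markers were also present, and their part in the RABC value was not tested; in bulk RNA, fewer cells of a type and less RNA per cell cannot be told apart. Of 8 B cell markers 7 were detected, with a summed level of 209.3 TPM in library 1 and 152.1 TPM in library 2. By the exact binomial test 6 of the 8 were higher in library 1, beside 23.6% of all genes tested. Cd22 was higher in library 2, at 20.2 TPM in library 1 and 22.84 TPM in library 2, and Pax5 did not pass. Cd79a had 56.28 TPM in library 1 and 40.59 TPM in library 2. The T cell markers Cd3e (1122.41 in library 1 and 1045.51 in library 2) and Cd4 (484.39 and 490.31) were far higher, and Foxp3, the factor that defines regulatory T cells, had 87.27 and 87.39. The RABC transcript and the summed B cell markers were both higher in library 1.

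Transcripts with a retained intron held a large part of Ptprc. The 8 such transcripts summed to 329.25 TPM in library 1 and 283.6 TPM in library 2, which was 33.8% and 29.2% of the gene, a mean of 31.5% ± 3.26 (SD, n = 2). The median over 5403 genes with such a transcript was 12.9%, and 79.8% of them lay below Ptprc. Ptprc-208, a single unspliced stretch of 3213 bases around exon 2, had 164.09 TPM in library 1 and 148.93 TPM in library 2. Ptprc-202, which runs from exon 3 on into the intron before exon A, had 63.02 and 52.02, and Ptprc-201, which begins in the intron before exon 8, had 51.93 and 46.35. Ptprc-210, an unspliced stretch over exons B and C, had 33.78 and 26.45, and Ptprc-211, over exons 9 and 10, had 10.25 and 6.27. Ptprc-205 had 6.18 and 3.58. Ptprc-206, Ptprc-209 and Ptprc-212 were at 0 counts in both libraries. All 6 retained-intron transcripts above 0 were higher in library 1 by TPM.

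By TPM, Cd44 was split about evenly between the standard form and 1 variant form. Cd44-203, the standard form with 9 exons, had 32.17 TPM in library 1 and 39.45 TPM in library 2. Cd44-207, which carries v5, v6, v8, v9 and v10, had 31.89 and 33.76. They held 47.29% and 46.87% of the gene in library 1, and 51.56% and 44.13% in library 2, per the deposited percentages. Cd44-201, with v1 to v10, had 0.50 in library 1 and 1.24 in library 2, and the retained-intron transcript Cd44-209 had 3.28 and 1.66. The other 5 transcripts were between 0 and 0.22.

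The variable exons of Cd44-207 are shown because the variant share of Cd44 rests on this transcript. They are written as above, with CACA in capitals.
Cd44 v5: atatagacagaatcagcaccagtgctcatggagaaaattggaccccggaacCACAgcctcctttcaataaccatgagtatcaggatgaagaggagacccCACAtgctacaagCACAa
Cd44 v6: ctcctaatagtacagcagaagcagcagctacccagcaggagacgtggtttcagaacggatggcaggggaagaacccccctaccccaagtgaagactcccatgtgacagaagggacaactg
Cd44 v8: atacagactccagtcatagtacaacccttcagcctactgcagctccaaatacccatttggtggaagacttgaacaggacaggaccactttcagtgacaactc
Cd44 v9: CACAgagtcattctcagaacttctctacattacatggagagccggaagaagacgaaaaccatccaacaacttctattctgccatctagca
Cd44 v10: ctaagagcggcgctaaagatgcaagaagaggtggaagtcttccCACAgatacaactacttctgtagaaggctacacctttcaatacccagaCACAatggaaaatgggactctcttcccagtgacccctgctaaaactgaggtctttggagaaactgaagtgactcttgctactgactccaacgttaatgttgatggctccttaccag
All are coding and on the minus strand: v5 is chr2:102842261-102842377, v6 is chr2:102839358-102839477, v8 is chr2:102834234-102834335, v9 is chr2:102832483-102832572 and v10 is chr2:102831330-102831536. CACA occurred 3 times in v5, 2 times in v10, 1 time in v9 and 0 times in v6 and v8. Of internal coding exons of like length, 3.04% held as many as v5, 34.7% as many as v9 and 28.3% as many as v10, while at least 1 CACA was present in 42.5%, 43.0%, 38.1%, 34.7% and 62.8% of those matched to v5, v6, v8, v9 and v10. Serine or threonine codons were 8 of 38 in v5 (21.1%), 10 of 39 in v6 (25.6%) and 12 of 33 in v8 (36.4%). They were 9 of 29 in v9 (31.0%) and 17 of 68 in v10 (25%), against 68 of 365 (18.6%) in the coding sequence of Cd44-203.

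By exon, v10 was in 50.3% of the spanning TPM in library 1 and 47.3% in library 2, a mean of 48.8% ± 2.15 (SD, n = 2, over 8 spanning transcripts). Exons v5, v6 and v8 were each in 50.02% and 46.77%, a mean of 48.4% ± 2.30, and v9 had a mean of 48.5% ± 2.14. Exons v1 to v4 and v7 were in 0.772% and 1.66%, a mean of 1.21% ± 0.626. By expected counts, v10 was in 64.3% in library 1 (95% Wilson interval 62.9 to 65.8) and 61.5% in library 2 (59.9 to 63.0). By TPM, the exons therefore fell into a group near 48% and a group near 1%, which is the exon content of Cd44-207.

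In the annotation the variable exons of Cd44-207 go with a longer 3′ end. The last exon of Cd44-207 has 3197 bases and that of Cd44-203 has 1791, and no annotated standard-form transcript has the long end. The effective lengths in the tables equal the number of windows of 50 bases in a transcript, and of the 4996 windows in Cd44-207 there were 2246 absent from Cd44-203. Of these, 1406 lie in the longer last exon, 685 between the outer exons and 155 in the first exon. Transcripts with v10 and the shorter 3′ end, 5 in number, summed to 0.20 TPM in library 1 and 0.39 TPM in library 2, beside 32.39 and 35.0 for the 2 transcripts with v10 and the long end. Inclusion of the variable exons and use of the long 3′ end thus cannot be told apart in these tables. With Cd44-207 left out, v10 was in 3.05% of the spanning TPM and v5 in 2.27%.

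**Figure D2:**
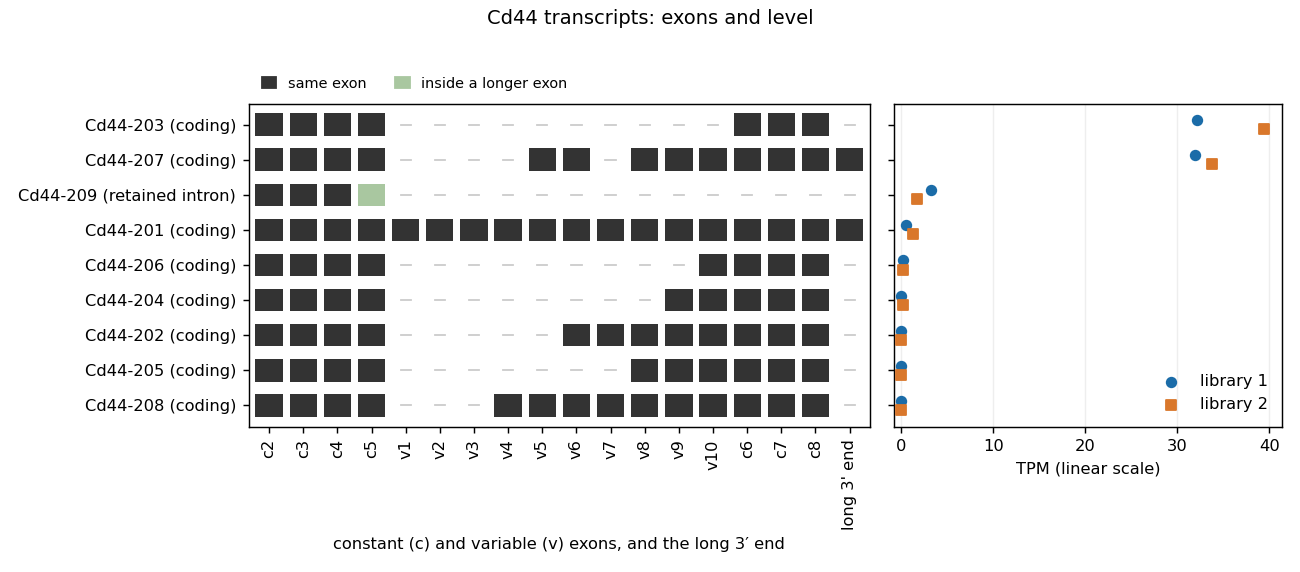
Cd44 transcripts by mean TPM, highest first. Blocks on the left mark constant exons (c), variable exons (v1 to v10) and the long 3′ end in each transcript, and points on the right give the TPM of library 1 (circles) and library 2 (squares) on a linear axis. The standard form 203 (32.17 and 39.45) and the variant 207 (31.89 and 33.76) stand apart from all other transcripts, and the long 3′ end is in 207 and 201 only.

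Epithelial markers and the epithelial splicing factors that promote variant CD44 were low. Esrp1 had 21 expected counts and a TPM of 0.35 in library 1, and 90 counts and a TPM of 2.44 in library 2. Esrp2 had 1.56 TPM in library 1 and 3.57 TPM in library 2. Of 6 epithelial or stromal markers 2 were detected, with a summed level of 12.4 TPM in library 1 and 12.3 TPM in library 2, and Krt18 and Col3a1 were at 0 counts in library 1. Epcam, the highest of them, had 9.84 and 5.43. It was the 1 marker called higher in library 1 by the exact binomial test. In library 2, 4 of the 6 were called higher, beside 23.6% and 46% of all genes in these directions. The like sums thus hide opposite differences. The part of these markers and splicing factors in the variant share was not tested.

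**Figure D3:**
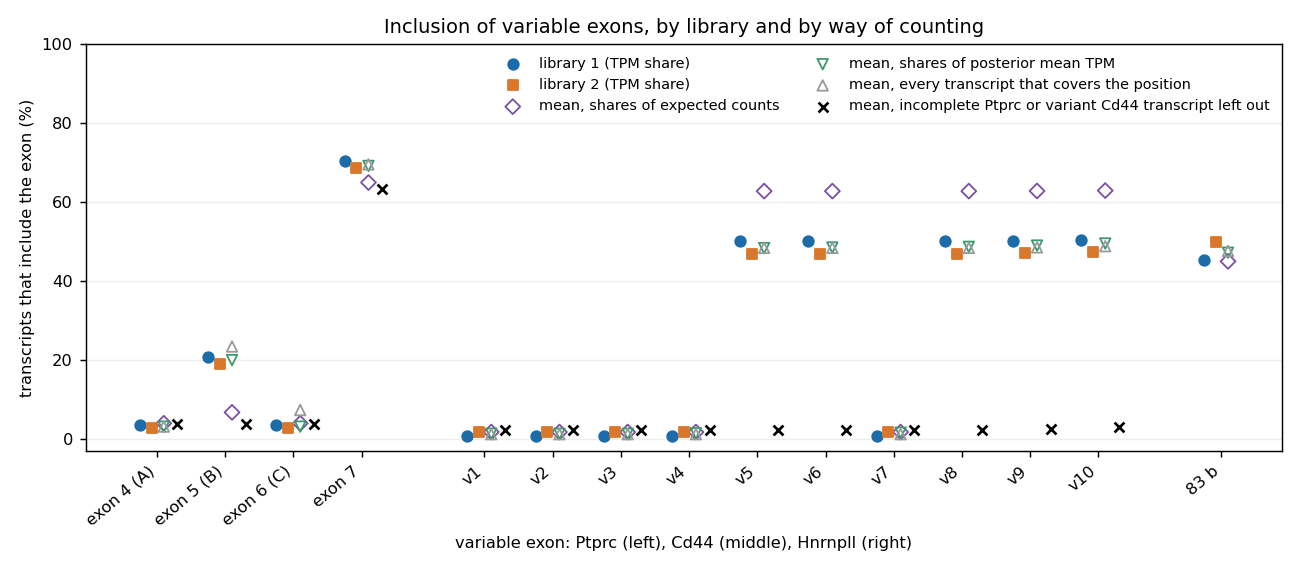
Percent of transcripts that include each variable exon, for Ptprc, Cd44 and Hnrnpll. Filled points give shares of spanning TPM in library 1 and library 2, open points the mean of both libraries under other ways of counting, and crosses the mean with Ptprc-213 or Cd44-207 left out. Exon A stays between 2.75% and 4.49% by TPM or counts, exon B falls to 3.77% and v10 to 3.05% once those transcripts are left out.

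For Hnrnpll, the most abundant transcript was one annotated as a target of nonsense-mediated decay. Hnrnpll-203 had 28.56 TPM in library 1 and 36.12 TPM in library 2, which was 43.32% and 46.03% of the gene. The protein-coding Hnrnpll-201 had 18.10 in library 1 and 14.83 in library 2, and the protein-coding Hnrnpll-205 had 15.56 and 17.90. Together, the coding transcripts held 51.1% of the gene in library 1 and 41.7% in library 2. The mean decay share of 44.7% ± 1.91 (SD, n = 2) was above that of 91.7% of 2652 genes with such a transcript, whose median was 5.99%.

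Hnrnpll-203 holds an exon of 83 bases (chr17:80044940-80045022, minus strand) that the coding transcripts lack. Its start is shown because it ends the reading frame: the first 44 bases are coding and the capitals mark the stop codon that follows (chr17:80044976-80045022).
Hnrnpll 83-base exon, first 47 bases: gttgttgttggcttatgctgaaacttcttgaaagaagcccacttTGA
The exon was in 45.4% of the spanning TPM in library 1 and 49.8% in library 2, a mean of 47.6% ± 3.07 (SD, n = 2, over 4 spanning transcripts). By expected counts it was in 42.7% in library 1 (95% Wilson interval 40.9 to 44.5) and 47.3% in library 2 (45.4 to 49.1). GENCODE marks Hnrnpll-203 as not supported by evidence from the mouse itself, and its last exon has 704 bases, against 1054 in Hnrnpll-205. Of its 2693 windows, 130 are absent from Hnrnpll-205, all between the outer exons, whereas Hnrnpll-205 has 0 windows found in no other transcript. The deposited TPM intervals bound the posterior mean TPM, not the TPM printed here, and their level is not stated. For Hnrnpll-205 they ran over 8.60 to 20.6 in library 1 and 8.30 to 23.5 in library 2. For Hnrnpll-203 they ran over 21.4 to 30.7 and 26.3 to 37.2. The intervals of these transcripts did not overlap within either library, so their order was the same in both.

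The 4 retained-intron transcripts of Hnrnpll were a minor share, at 5.63% of the gene in library 1 and 12.3% in library 2. Hnrnpll-204 had 0.64 TPM in library 1 and 3.72 TPM in library 2, and Hnrnpll-206 had 0.35 and 3.11. Hnrnpll-202 had 0.61 and 1.83, whereas Hnrnpll-207 was higher in library 1, at 2.11 and 0.97.

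**Figure D4:**
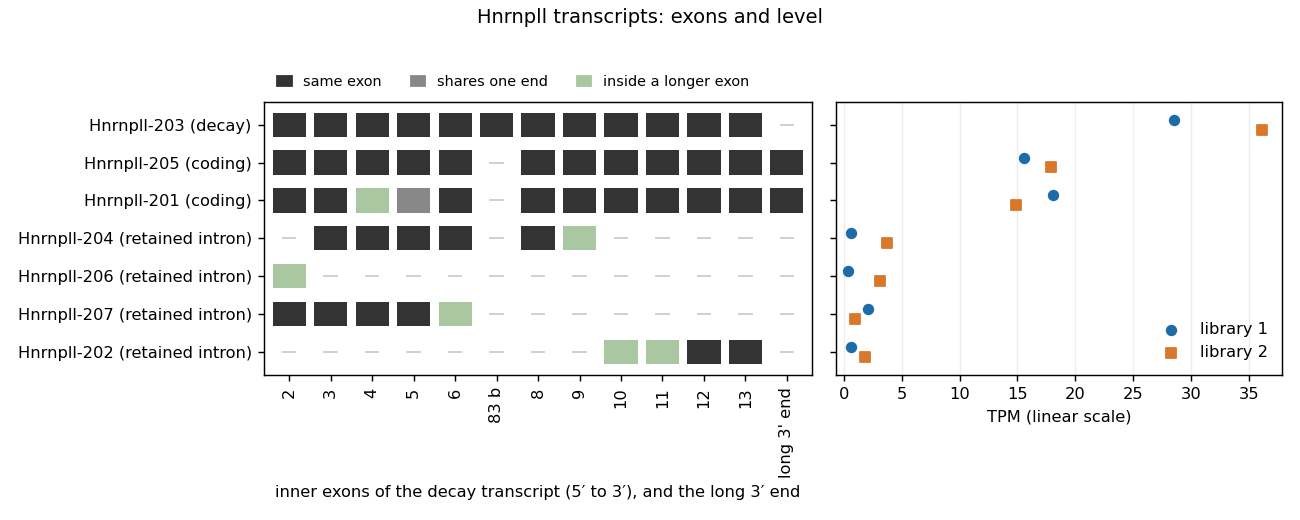
Hnrnpll transcripts by mean TPM, highest first. Blocks on the left mark the inner exons of Hnrnpll-203, its 83-base exon (83 b) and the long 3′ end, and points on the right give the TPM of library 1 (circles) and library 2 (squares) on a linear axis. Hnrnpll-203, the one transcript with the 83-base exon, lies at 28.56 and 36.12, above the coding transcripts at 14.83 to 18.10.

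How far the isoform mix moved between the libraries was read from transcript shares, which do not depend on library scaling. The distance was taken as the share of a gene's TPM that would have to move between transcripts to turn one library's mix into the other's. It was 4.99 percentage points for Ptprc, 5.40 for Cd44 and 11.3 for Hnrnpll, beside a median of 10.5 over 7841 genes with several transcripts and a mean TPM of at least 10. Of these genes, 25.2% had a smaller distance than Ptprc, 27.0% than Cd44 and 52.8% than Hnrnpll. Among the 5182 of them with 5 or more transcripts the median was 13.4, and 13.1%, 14.7% and 41.0% lay below Ptprc, Cd44 and Hnrnpll. Among the 3609 with a mean TPM of at least 50 the median was 7.45, and 35.2%, 37.7% and 69.3% lay below them. The side of the median on which Hnrnpll fell thus depended on the genes it was set beside. By Fisher's exact test of each transcript against the rest of its gene, 10 of 21 member transcripts had a higher share in library 1, 8 a higher share in library 2 and 3 did not pass. Of all 51915 transcripts tested 58.4% passed, with 28.2% higher in library 1 and 30.1% in library 2. The 3 that did not pass were Ptprc-213, Ptprc-205 and Hnrnpll-205. By level, 9 transcripts were called higher in library 1 and 9 in library 2 by the exact binomial test, beside 67% of all 60495 transcripts called, 27.6% and 39.4% by direction. TMM factors turned this into 10 and 7, beside 31.7% and 35.5% of all transcripts, and DESeq2 size factors into 11 and 6, beside 33% and 34.5%.

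The calls follow the large counts and do not include the uncertainty of assigning reads to transcripts. The RABC transcript Ptprc-207 took 3.11% of the counts of its gene in library 1 and 2.55% in library 2 (adjusted p = 1.11e-07, Fisher's exact test). Its deposited TPM intervals overlapped, at 15.7 to 25.8 in library 1 and 12.6 to 22.9 in library 2. Such intervals bound the posterior mean TPM of a transcript, not its share, so their overlap does not measure the uncertainty of the share. The standard form Cd44-203 took 34.8% of the counts of its gene in library 1 and 38.1% in library 2 (adjusted p = 0.00446), and its intervals of 26.6 to 31.76 and 31.82 to 38.3 almost touched. Of the 18 transcripts that passed by share, 8 had overlapping TPM intervals. Among them were the coding transcripts 203, 204 and 207 of Ptprc, Cd44-207, Hnrnpll-201 and Hnrnpll-203. The 10 others were the standard form Cd44-203 and 9 retained-intron transcripts.

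Of 36 regulators listed for CD45 or CD44 exons, 33 were detected, at a median TPM of 139. The highest were Hnrnpa2b1, an hnRNP protein (TPM 1296.07 in library 1 and 1225.15 in library 2), and the RNA helicase Ddx5 (673.0 and 749.05). The splicing factor Srsf5 followed at 588.2 and 642.19, then Mbnl1 at 526.19 and 510.52, Srsf7 at 505.09 and 518.42, and Srsf3 at 459.84 and 438.44. Hnrnpl, which acts on the same CD45 exons as Hnrnpll, had 248.78 TPM in library 1 and 209.93 TPM in library 2, against 65.92 and 78.47 for Hnrnpll itself. Under a TPM of 1 in both libraries was Khdrbs3 alone (0 and 0.52).

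By the exact binomial test, 19 of the 36 had higher counts in library 1 and 10 in library 2, while 7 failed the threshold, beside 23.6% and 46% of all genes in these directions. The median log2 ratio was 0.07, beside -0.23 over all genes tested and -0.01 over detected genes. With TMM scaling, 26 had higher counts in library 1 and 6 in library 2, beside 29.9% and 40.1% of all genes. The genes tested were not matched to the regulators in level, and many of them were under a TPM of 1. These shares of all genes, here and for the partners below, are therefore not a matched background. Differences of at least 2-fold with at least 100 counts were found in 3 of the regulators, all higher in library 2. These were Esrp1 and Esrp2, given above, and Rbfox2, with 0 counts in library 1 and 107 in library 2, which was at least 43.0-fold higher in library 2 against a floor of 3 counts. The small table gave Rbfox2 2 counts in library 1 and 33 in library 2. Of all detected genes, taken without a count filter, 11.3% differed at least 2-fold in either direction. That set leaves out Esrp1 and Rbfox2, so the share is not a matched background for these regulators. Macrophage markers were also higher in library 2 for 6 of 7 genes, with a summed level of 32.9 TPM in library 1 and 71.0 TPM in library 2; C1qc was at 0 counts in library 1. The exception was Lyz2, the highest of the 7 by mean TPM, with 23.78 TPM in library 1 and 3.72 TPM in library 2. Their part in these differences was not tested.

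**Figure D5:**
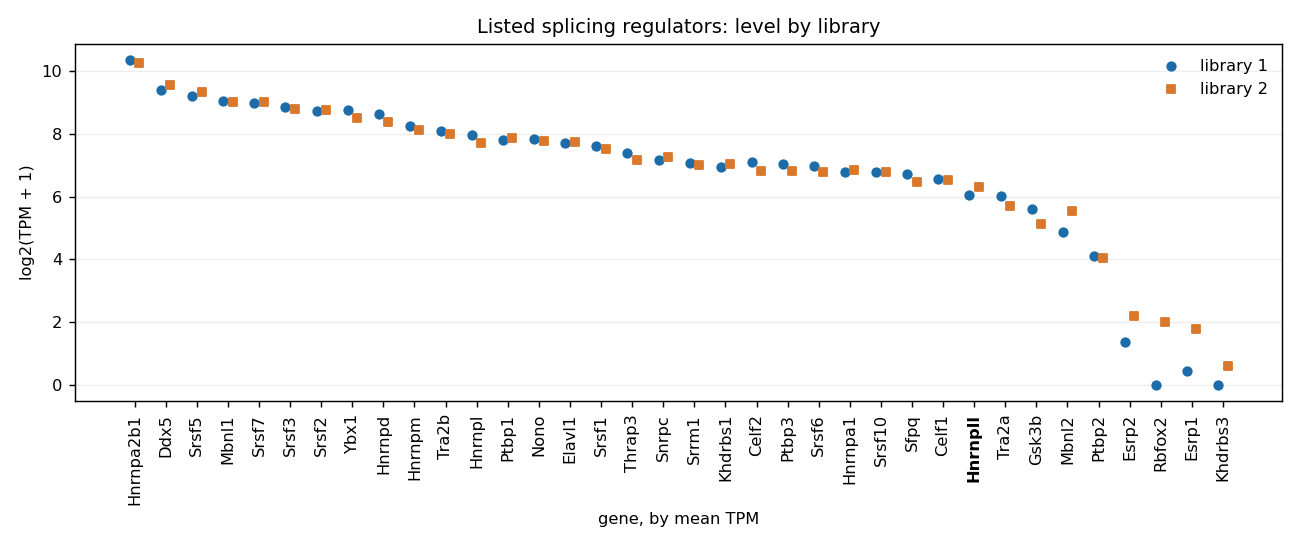
Level of the 36 listed splicing regulators as log2(TPM + 1), from the highest to the lowest mean TPM. Circles are library 1 and squares library 2. Hnrnpll (bold) lies in the lower part of the range, below Hnrnpl, and the libraries separate most for Rbfox2, Esrp1 and Esrp2 at the low end.

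The signalling partners of CD45 were abundant. All 16 listed were detected, with higher counts in library 1 for 5, in library 2 for 4 and neither for 7, beside 23.6% and 46% of all genes called in these directions. Their median log2 ratio was 0.02. Lck, the kinase that CD45 acts on, had 1219.61 TPM in library 1 and 1237.01 TPM in library 2, and Ptprcap, the CD45-associated protein, had 1001.24 and 988.92, beside 974.7 and 972.0 for Ptprc itself. The adhesion receptor Cd2 had 811.0 and 816.0, the kinase Jak1 525.37 and 492.04, the adaptor Skap1 523.93 and 494.75, and the co-receptor Cd4 484.39 and 490.31. Lgals3, a galectin that binds glycans of CD45, had 83 counts in library 1 and 350 in library 2 (TPM 4.89 and 24.22), a log2 ratio of -2.34. It was higher in library 2, as were 6 of the 7 macrophage markers, though not Lyz2; their part was not tested.

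Of 22 listed partners of CD44, 16 were detected and 20 had enough counts to test. In these, counts were higher in library 1 for 9 and in library 2 for 8, while 3 failed the threshold, beside the same 23.6% and 46% of all genes. Their median log2 ratio was 0.05. Msn (moesin), which links CD44 to actin, had 907.47 TPM in library 1 and 975.38 TPM in library 2. Srgn, the proteoglycan core protein serglycin, had 764.6 and 622.21, and the selectin ligand Selplg had 711.04 and 821.68. Cd74, the invariant chain that pairs with CD44 as a receptor for MIF, had 499.25 and 460.15, and the filament protein Vim had 310.26 and 405.34. The hyaluronan synthases Has1, Has2 and Has3 were under a TPM of 1 in both libraries. For Has3 the sources differ: it had 1.43 expected counts in library 1 and 0 in library 2, but 35 and 33 counts in the small table. With TMM scaling, 23 of the 38 partners of CD45 and CD44 had higher counts in library 1 and 10 in library 2, against 14 and 12 without it and beside 29.9% and 40.1% of all genes with it.

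Of the CD44 partners with at least 100 counts over both libraries, 4 differed at least 2-fold between them. Spp1 (osteopontin), a ligand of CD44, had 404 counts in library 1 and 8 in library 2 (TPM 17.89 and 0.40), a log2 ratio of 5.30. Ank3, an ankyrin, had 26 counts in library 1 and 163 in library 2, the proteoglycan Vcan had 40 and 110, and the protease Mmp9 had 38 and 94. The log2 ratios of Ank3, Vcan and Mmp9 were -2.90, -1.72 and -1.57. Below 100 counts, Has1 had 33 counts in library 1 and 0 in library 2, at least 9.12-fold higher in library 1 against a floor of 3 counts. The small table gave Has1 4 counts in library 1 and 0 in library 2. Of all detected genes, taken without a count filter, 11.3% differed at least 2-fold between the libraries. Spp1, Vcan and Mmp9 were under a TPM of 1 in a library and so are outside that set. The share is therefore not a matched background for these partners.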

How the data were processed

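Polyadenylated RNA of 1 group, with 1 biological replicate in 2 technical libraries, was analysed. Per the file headers, the large gene and transcript tables hold expected counts, TPM, FPKM, each transcript's percent of its gene, and bounds of posterior mean TPM as signal values, made by the authors on mm10 with GENCODE M21; the small table holds whole-number counts deposited by the authors, on GENCODE M4. Expected counts divide reads that several transcripts share by a model. The sources used here do not give the aligner, quantifier, duplicate removal or strand setting, so overlapping and near-identical genes are uncertain.

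The expected counts of GENCODE genes summed to 26593267 in library 1 and 22036331 in library 2, and 7911181 and 6972139 in the small table; a count of 0 allows up to 3 counts, a CPM of 0.113 and 0.136. Intervals and floors cover counting error only. Expected counts were rounded and tested between the libraries with 2-sided exact binomial tests (genes) and Fisher's exact tests (transcript shares), for features with at least 10 counts summed, with Benjamini-Hochberg adjustment over the whole table and a threshold of 0.05. Ratios are library 1 over library 2 after adding 0.5 counts. Exons were matched by coordinates, and inclusion is the share of TPM over transcripts that span the region. Sequences come from GENCODE M21 transcripts. Tests were checked on simulated counts that held counting error alone. That check does not cover other spread between libraries or the assignment of reads to transcripts. Alternatives used edgeR 4.0.16 and DESeq2 1.42.0 scaling (R 4.3.3, Python 3.11.15, scipy 1.17.1), other filters, counts and tables.

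The members and lists were chosen with earlier results of these data known. All transcripts of the members with a TPM of at least 1 in either library were named; of each list, the 6 genes with the highest mean TPM, those under a TPM of 1 in both libraries, and those at least 2-fold different with at least 100 counts summed. A few markers, Hnrnpl, exon 7 and the 83-base exon were picked with values in view. Of the genes taken by this rule, 1 is not reported here.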

Additional observations from a re-analysis of the deposited data

How the results depend on the processing

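The log2 ratio of library 1 over library 2 for Ptprc was 0.11 with TMM factors (adjusted p = 5.92e-36, exact binomial test) and 0.15 with DESeq2 size factors. In the small table this ratio was -0.13, in the other direction (adjusted p = 2.50e-07, exact binomial test). For Cd44 it was -0.036 with TMM factors (adjusted p = 0.324), 0.00020 with DESeq2 size factors and -0.078 in the small table, and for Hnrnpll -0.050 with DESeq2 size factors (adjusted p = 0.220, exact binomial test). By shares of expected counts, mean inclusion was 3.98% for exon 4 of Ptprc, 6.75% for exon 5, 64.9% for exon 7 and 62.9% for v10 of Cd44. Counting every transcript that covers the position put exon 5 at 23.4% and exon 6 at 7.34%. With Ptprc-213 left out, an alternative chosen after seeing the data, exons 4 and 5 were both at 3.77% and exon 7 at 63.4%; with Cd44-207 left out, likewise, v7 was at 2.27% and v10 at 3.05%. Counting only transcripts with at least 1% of the gene put v7 at 0%. The 83-base exon of Hnrnpll was at 0% over coding transcripts, which lack it by construction. With TMM factors, 6 regulators were higher in library 2, against 10, and 23 partners were higher in library 1, against 14. The cause of these changes was not tested beyond what is said above. Without replicate 1 or replicate 2, exon 4 ranged over 2.75% to 3.53%, exon 5 over 19.1% to 20.8%, exon 7 over 68.6% to 70.4%, v7 over 0.772% to 1.66%, v10 over 47.3% to 50.3% and the 83-base exon over 45.4% to 49.8%; the regulators detected ranged over 33 to 35 and the partners over 33 to 34. The member transcripts called, 18 by level and 18 by share, were 17 or 18 under the other filters and with posterior mean counts, and the level calls were 17 with TMM factors or DESeq2 size factors, added after seeing the data. No paired analysis was possible because there is 1 group. Depth limits the transcripts under a TPM of 1, and 2 libraries of 1 biosample give no spread between animals.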
